A study of Mus musculus with 2 samples.

Results

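Rbp4 encodes retinol-binding protein 4, the secreted carrier that takes retinol out of cells and through the plasma. It was followed here in fibroblasts and epithelial cells of the mouse lung, as 1 of the 32285 genes listed in the deposited matrices. The cells were UV-positive lung cells, sorted live and as singlets for the autofluorescence of their retinoids, taken from male wild type C57BL/6 mice at 3 months of age. They formed 2 droplet libraries of 1 condition, prepared on separate occasions, and the number of mice behind each is not given in the sources used here. A UMI (unique molecular identifier) marks 1 captured transcript, and a cell was kept if it had 200 or more genes detected and no more than 10% of its UMIs from mitochondrial genes.

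The groups were defined by the UMIs of a few genes. A fibroblast had at least 3 UMIs of Col1a2, Mfap4 and Pdgfra together and 0 of Cdh5, Pecam1, Epcam and Ptprc. Fibroblasts were divided by Dcn, which encodes the matrix proteoglycan decorin, into cells with at least 5 UMIs, with 1 to 4, and with 0. An epithelial cell had at least 3 UMIs of Epcam, Cdh1 and Lamp3 and at most 1 of Col1a2, Mfap4 and Pdgfra. Of 9634 and 9988 cells kept in library 1 and library 2, 848 and 760 were Dcn ≥5 fibroblasts, 992 and 1083 had 1 to 4 Dcn UMIs, 5821 and 5396 had none, and 930 and 132 were epithelial. Rbp4 was chosen for its level in these groups, so its levels are given as a description with no test. Cells of a library are not replicates, and the spread is that between the 2 libraries.

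RBP4 is a small lipocalin that holds a single retinol molecule. In plasma it travels bound to transthyretin (Ttr), the liver is its best-known source and adipose tissue another, and STRA6 is its receptor on cells that take up retinol. In the lung, lipid-laden fibroblasts store retinol as retinyl ester through LRAT. Adventitial fibroblasts, which surround airways and larger vessels, are known for Dcn and for the peptidase inhibitor gene Pi16.

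The 9669 barcodes of library 1 had 48762735 UMIs and the 10050 of library 2 had 93970185, and the kept cells had medians of 4480 and 7577.5 UMIs. The libraries shared 23 cell barcodes, of which at most 16 fell in any group of 1 library. The Dcn ≥5 group was a mixture. Pi16 was at 236 and 54.9 UMIs per 1000000 UMIs of the group (CPM) in it and at 0.589 and 0.317 CPM in Dcn 0 fibroblasts, but a Pi16 UMI was found in 25.8% and 9.08% of its cells. The alveolar fibroblast gene Npnt, which encodes the matrix protein nephronectin, was still at 676 and 1319 CPM, against 1947 and 2442 CPM in Dcn 0 cells. The group is therefore called by its rule and not as adventitial. Summed over 8 alveolar fibroblast markers, the level was 8008 and 9022 CPM in Dcn ≥5 cells and 13651 and 14046 CPM in Dcn 0 cells. Over 10 adventitial fibroblast markers it was 8184 and 5144 CPM in Dcn ≥5 cells and 2402 and 1416 CPM in Dcn 0 cells. That list includes Dcn, by which the groups were cut.

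By Lamp3, Abca3 and Slc34a2, 903 of the 930 epithelial cells were alveolar type 2 in library 1 and 93 of the 132 in library 2. In library 2, 23.5% of the 132 cells had a UMI of the leukocyte gene Ptprc, against 0.645% in library 1. The 4 immune markers summed to 761 CPM there and to 21.9 CPM in library 1. The level, shares and correlations of Rbp4 in epithelial cells, and the retinoid calls, are given also without the cells holding a UMI of Ptprc, Cdh5 or Pecam1, which left 912 and 94 cells.

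Rbp4 (ENSMUSG00000024990) lies on the minus strand of chromosome 19 at 38116629 to 38125281 of GRCm38, between Ffar4 and Pde6c, and no annotated gene overlaps it. The 3' libraries read its transcript end and cannot tell start sites apart. RefSeq lists 2 start sites, and the 250 bases before the one inside the annotated gene (GRCm38.p6, chr19:38124812-38125061, minus strand, 70.8% GC) are shown because the genes that follow Rbp4 from cell to cell, described further on, include hedgehog targets. Capitals mark a TATAAA box starting at -28 and the 8 letters GACCACCC, starting at -221 from the start site. These 8 letters are only part of the longer sequence that Gli factors bind. The base that follows them here is t, and a match to the full Gli sequence was not tested.
Rbp4: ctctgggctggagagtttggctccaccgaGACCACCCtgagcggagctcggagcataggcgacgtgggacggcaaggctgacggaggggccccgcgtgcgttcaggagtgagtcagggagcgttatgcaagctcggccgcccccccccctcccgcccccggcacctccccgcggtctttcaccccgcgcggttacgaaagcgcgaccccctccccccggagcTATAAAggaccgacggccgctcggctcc
Searched on both strands, TATAAA was found in 13.6% and GACCACCC in 0.807% of 32851 RefSeq promoter windows of the same length. Neither TATAAA nor GACCACCC was in the window of the other Rbp4 start site. AGGTCA, the half-site of retinoid receptors, was in 16.3% of them and in neither Rbp4 window. A match of letters describes the sequence and does not show a bound site.

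Rbp4 was highest in Dcn ≥5 fibroblasts in each library. Its level there was 825 CPM in library 1 and 321 CPM in library 2 (573 ± 356, S.D., n = 2 libraries). It was 223 and 145 CPM in fibroblasts with 1 to 4 Dcn UMIs (184 ± 54.7) and 51.7 and 42.6 CPM in Dcn 0 fibroblasts (47.1 ± 6.45). Epithelial cells had 40.9 and 30.8 CPM (35.9 ± 7.13). The order was the same in both libraries, and the ranges of neighbouring groups did not overlap, but the S.D. of the Dcn ≥5 level was large beside its distance to the next group. The level in Dcn ≥5 cells was 15.9 and 7.54 times that in Dcn 0 cells, and 20.2 and 10.4 times that in epithelial cells.

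The step between Dcn 0 fibroblasts and epithelial cells was small, at 1.26 and 1.38 times, and it depended on the denominator. With surfactant, Scgb1a1 and mitochondrial UMIs left out of the total, epithelial cells had 59.8 and 40.2 CPM and Dcn 0 fibroblasts 52.6 and 43.6 CPM, so that the order turned in library 1. After thinning each cell to 2000 UMIs they had 36.3 and 45.5 CPM against 45.8 and 31.8 CPM, and the order turned in library 2. The library 2 value rests on 1 random draw from 132 cells. A separate draw from the 93 alveolar type 2 cells among them gave 21.5 CPM, so thinning does not settle the order there. Without Ptprc, Cdh5 or Pecam1 UMIs, epithelial cells had 40.8 and 40.03 CPM, which is again close to the Dcn 0 level.

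Endothelial cells (Cdh5 and Pecam1 at 3 or more UMIs) and immune cells (Ptprc, Laptm5 and Coro1a at 3 or more) held almost none. Rbp4 had 0 UMIs in 44 endothelial cells of library 1, which allows up to 29.3 CPM, and 1 UMI in 312 cells of library 2 (0.609 CPM). It had 0 UMIs in 232 immune cells of library 1, which allows up to 3.82 CPM, and 1 UMI in 278 cells of library 2 (0.699 CPM). These limits and the intervals on shares of cells below cover counting error only.

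**Figure D1:**
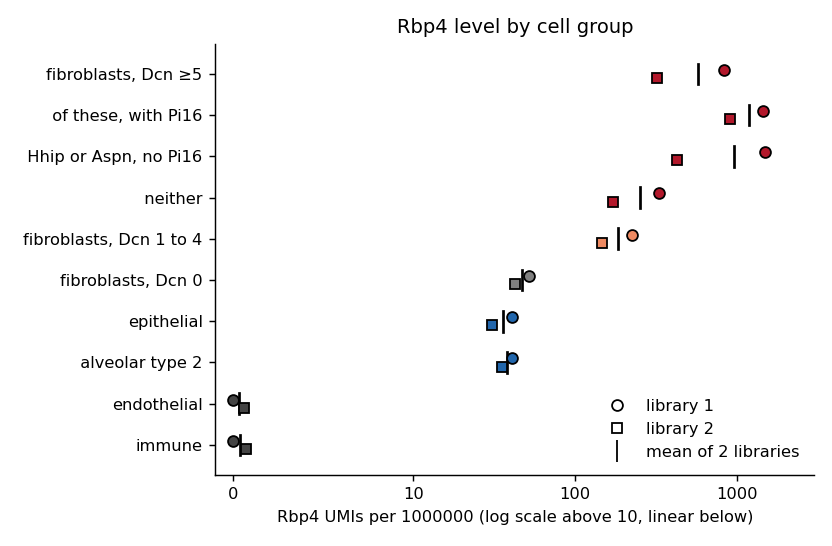
Rbp4 level in UMIs per 1000000 (log scale above 10, linear below) for each group of cells, with a circle for library 1, a square for library 2 and a bar for their mean. Dcn ≥5 fibroblasts sit at 825 and 321, Dcn 0 fibroblasts at 51.7 and 42.6, epithelial cells at 40.9 and 30.8, and endothelial and immune cells below 1.

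The Dcn ≥5 group held the largest share of the gene's transcripts in each library, from a small share of cells. It was 8.80% and 7.61% of the kept cells and held 58.6% and 40.9% of the 7607 and 7056 Rbp4 UMIs. Dcn 0 fibroblasts, at 60.4% and 54.0% of cells, held 16.2% and 22.8%, and epithelial cells held 4.64% and 0.765%. Cells with fibroblast markers and also an endothelial, epithelial or immune UMI are in none of the groups. There were 390 in library 1 and 1789 in library 2, holding 4.82% and 14.2% of the Rbp4 UMIs.

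Fibroblasts and epithelial cells reached their levels in different ways. In Dcn ≥5 fibroblasts an Rbp4 UMI was found in 61.3% of cells in library 1 (95% Clopper-Pearson interval 57.9 to 64.6%) and in 53.0% in library 2 (49.4 to 56.6%). Of these cells, 328 and 357 had 0 UMIs, while single cells reached 57 and 78. At least 6 UMIs were found in 275 and 154 cells, 32.4% and 20.3% of the group, and those cells held 87.3% and 82.2% of its Rbp4 UMIs. The variance of the count over cells was 11.5 and 16.0 times its mean. The limit of 6 UMIs was set after the counts were seen, just above the highest epithelial cell.

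In fibroblasts with 1 to 4 Dcn UMIs a UMI was found in 21.2% and 23.2% of cells, and 65 and 75 cells had at least 6. In Dcn 0 fibroblasts the share with a UMI was 4.79% (4.26 to 5.37%) and 5.84% (5.23 to 6.50%). The few cells that had the transcript could still be rich in it: 79 and 84 cells, or 1.36% and 1.56% of the group, had at least 6 UMIs and held 72.3% and 72.7% of its Rbp4 UMIs. The highest Dcn 0 cells had 36 and 56 UMIs.

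Epithelial cells showed the opposite shape. An Rbp4 UMI was found in 25.9% of them in library 1 (23.1 to 28.9%) and in 33 of 132 in library 2 (17.9 to 33.3%), and without Ptprc, Cdh5 or Pecam1 UMIs in 25.8% and 31.9% (22.7 to 42.3%). None had 6 or more UMIs, the highest cell had 5 in each library, and the variance was 1.53 and 1.75 times the mean (1.55 and 1.69 times without those cells). In endothelial and immune cells of library 2 the share was 0.321% (0.00811 to 1.77%) and 0.360% (0.00911 to 1.99%), from 1 cell each. Their medians were 4147 and 4421.5 UMIs, against 9312.5 and 13383 UMIs in epithelial cells of library 1 and library 2.

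The epithelial share was smaller at equal depth. After each cell was thinned to 2000 UMIs, leaving out 12, 31, 734 and 6 shallower cells of library 1 from the Dcn ≥5, Dcn 1 to 4, Dcn 0 and epithelial groups and 0, 2, 40 and 0 of library 2, the share with an Rbp4 UMI was 47.4% and 28.9% in Dcn ≥5 fibroblasts. It was 13.6% and 12.4% with 1 to 4 Dcn UMIs, 3.42% and 3.15% in Dcn 0 fibroblasts and 6.49% and 7.58% in epithelial cells (8.61% and 6.38% without those with Ptprc, Cdh5 or Pecam1 UMIs). Thinned endothelial and immune cells of library 2 gave 0.346% and 0.383%. In library 1 epithelial cells thus had a UMI more often than Dcn 0 fibroblasts also at equal depth (4.99 to 8.28% against 2.94 to 3.96%). In library 2 the epithelial interval was wide (3.69 to 13.5%, against 2.70 to 3.66% in Dcn 0 cells). A separate draw from the 93 alveolar type 2 cells of library 2 gave 4.30% (1.18 to 10.6%). The epithelial share was below that of the 1 to 4 Dcn group in each library.

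**Figure D2:**
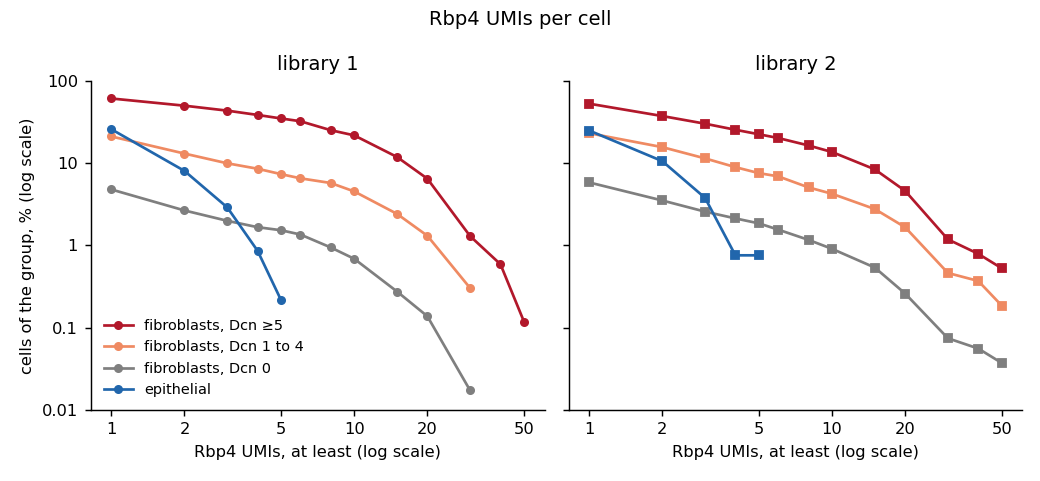
Share of cells (%, log scale) with at least the number of Rbp4 UMIs on the x axis (log scale), 1 panel for each library and 1 line for each group. The epithelial line starts near 25% and ends at 5 UMIs, whereas the Dcn 0 line starts near 5% and runs on to cells with more than 30.

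Within fibroblasts Rbp4 followed the Dcn count. In library 1 its level went from 51.7 CPM at 0 Dcn UMIs through 155 CPM at 1 and 399 CPM at 4, just outside the limit, to 519 CPM at 5, just inside it, and to 1417 CPM in the 64 cells with 50 or more. In library 2 it was 309 CPM at 4 and 337 CPM at 5, then lay between 266 and 337 CPM up to 49 Dcn UMIs and at 475 CPM in the 111 cells above. The limit of 5 thus cuts a gradient and no gap lies there. The share of cells with a UMI went over these bins from 4.79% to 82.8% in library 1 and from 5.84% to 73.0% in library 2. These shares are not at equal depth. The median total of a cell went from 3972 to 7276.5 UMIs in library 1 and from 6543.5 to 12183 UMIs in library 2.

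Few cells lay at the other limits. Fibroblasts with exactly 3 marker UMIs numbered 153 and 33 and had 182 and 67.5 CPM, and cells with 2, outside the gate, numbered 123 and 24 and had 20.3 and 0 CPM. Epithelial cells with exactly 3 marker UMIs were 13 and 12, holding 2 and 0 Rbp4 UMIs, and the cells with 2 were 10 and 23, holding 1 and 0.

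**Figure D3:**
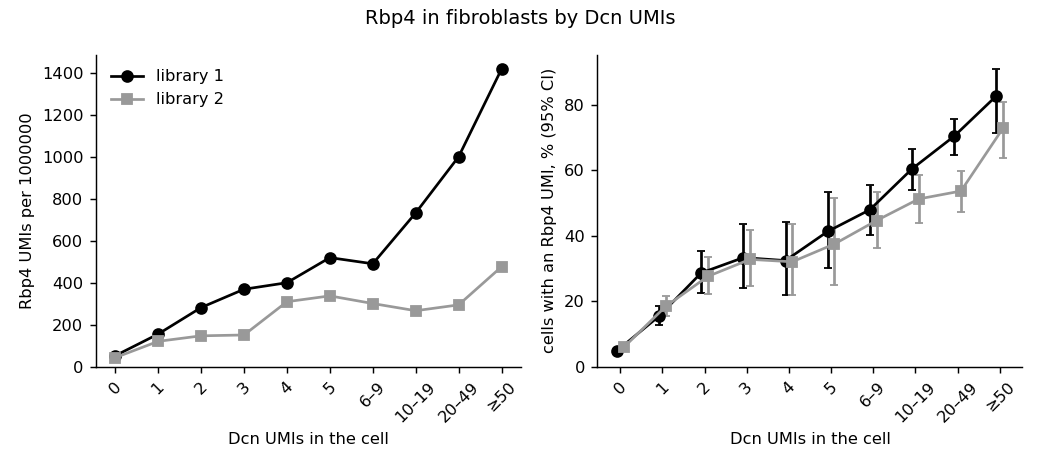
Rbp4 in fibroblasts by the number of Dcn UMIs in the cell, as UMIs per 1000000 (left) and as the share of cells with an Rbp4 UMI with its exact 95% interval (right), for library 1 (black circles) and library 2 (grey squares). The left lines part above 10 Dcn UMIs, with 1417 and 475 CPM in the last bin, while the shares stay closer.

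Rbp4 was also uneven within the Dcn ≥5 group. In the 219 and 69 cells with a Pi16 UMI its level was 1449 and 901 CPM, and 92.7% and 94.2% of these cells had a UMI. Cells with a UMI of Hhip, which encodes a hedgehog-binding membrane protein, or of Aspn, which encodes the matrix protein asporin, but none of Pi16 numbered 142 and 215 and had 1475 and 426 CPM. The 487 and 476 cells with none of the 3 genes had 329 and 172 CPM and a UMI in 41.7% and 45.2% of cells. Even these stood above Dcn 0 fibroblasts in each library.

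The level in Dcn ≥5 cells was 2.57 times as high in library 1 as in library 2. The share of Pi16 cells moved with it, and the ratio of library 1 to library 2 was 1.61 in Pi16 cells, 3.46 in Hhip or Aspn cells and 1.92 in the rest, so library 1 was higher within each of them. With 1 library on each occasion this difference cannot be told apart from the occasion. Depth differed as well, with medians of 6109 and 10806.5 UMIs in Dcn ≥5 cells, while the limit of 5 Dcn UMIs was the same. Dcn itself was at 3369 and 2323 CPM in the group. The part of depth in the difference was not tested. In Dcn 0 fibroblasts and epithelial cells the ratio was 1.21 and 1.33.

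The Hhip and Aspn pattern reached beyond Dcn. Dcn 0 fibroblasts with Hhip or Aspn and no Pi16 numbered 301 and 693 and had 290 and 164 CPM of Rbp4, against 33.7 and 19.8 CPM in the 5509 and 4691 with none of these genes. Of the Dcn 0 cells with 6 or more Rbp4 UMIs, 46.8% and 63.1% had a Hhip or Aspn UMI, and of those with 0 Rbp4 UMIs 4.15% and 11.3% did. Pi16 was seen in 3.80% and 0% of the former. In Dcn ≥5 cells with 6 or more Rbp4 UMIs, 47.6% and 30.5% had Pi16 and 61.5% and 68.2% had Hhip or Aspn.

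The alveolar type 2 cells had 40.8 and 35.1 CPM of Rbp4 with a UMI in 25.8% and 29.0% of cells. The 26 cells of library 2 with none of the epithelial subtype markers at their limits held 1 UMI (3.53 CPM). Club cells (21 and 3 cells) held 12 and 5 UMIs and alveolar type 1 cells (3 and 10 cells) held 1 and 2, too few for a level.

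Dcn was nearly absent from the epithelial group, whose gate itself allows at most 1 UMI of Col1a2, Mfap4 and Pdgfra. Its cells held 353 and 54 Rbp4 UMIs but 4 and 2 Dcn UMIs. The 820 and 100 cells with none of these 4 genes had 39.2 and 29.3 CPM of Rbp4, close to the whole group. The 110 and 32 cells with a UMI of any of them had 53.1 and 35.7 CPM. The 8 alveolar fibroblast markers, which include Npnt and Ces1d, summed to 607 and 633 CPM in epithelial cells. In the other direction, Sftpc stood at 308 and 92.7 CPM in Dcn ≥5 fibroblasts and at 2902 and 551 CPM in Dcn 0 fibroblasts, while Rbp4 ran the opposite way between these groups. Carry-over of transcripts between cells was not tested. Of the hepatocyte markers, Alb, Serpina1a, Fgb and Ttr had 0 UMIs in Dcn ≥5 fibroblasts, and the list of 6 summed to 1.30 and 0.891 CPM there. Of the 4 adipocyte markers, Adipoq and Lep had 0 UMIs in all 4 groups of both libraries. Plin1 was at 0.483 CPM or less in each, and Cidec at 0.290 CPM or less but for 26.3 CPM in epithelial cells of library 2.

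Over single Dcn ≥5 cells, Rbp4 varied together with a set of genes that was alike in the 2 libraries. Correlations are Pearson's r over cells of log(1 + UMIs per 10000). They are given for each library as a description, since cells of a library share its depth and preparation. Lamc3, the gene of the laminin gamma 3 chain, had r = 0.58 over 848 cells and 0.55 over 760 cells. Ptch1, the hedgehog receptor and itself a target of that pathway, had 0.61 and 0.50. Smim41, a small membrane protein gene, had 0.54 and 0.46, and Adh7, a retinol-oxidising alcohol dehydrogenase, had 0.52 and 0.42.

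Pltp (phospholipid transfer protein), St8sia2 (a polysialyltransferase), Clec3b (tetranectin) and Pla2g7 (platelet-activating factor acetylhydrolase) completed the 8 highest, with r between 0.37 and 0.47. The contrast in level was wide. Lamc3 was at 346 and 142 CPM in Dcn ≥5 cells with 6 or more Rbp4 UMIs and at 12.9 and 3.73 CPM in those with 0. Ptch1 was at 495 and 268 CPM against 67.7 and 50.5 CPM.

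The 5 lowest genes were Cdo1 (cysteine dioxygenase, -0.48 and -0.42), Npnt (-0.48 and -0.39), Lrat (-0.33 and -0.35), Aldh1a1 (-0.38 and -0.33) and Ces1d (-0.34 and -0.31). Of these, Lrat makes retinyl esters, Aldh1a1 oxidises retinaldehyde and Ces1d encodes a carboxylesterase. Cells with 6 or more Rbp4 UMIs had 206 and 103 CPM of Lrat, and cells with 0 had 531 and 310 CPM. Rbp4 was almost unrelated to a cell's total UMIs here (r = 0.00062 and -0.014). Across the 6051 genes with a UMI in at least 10% of cells in each library, the r values of the libraries had a correlation of 0.69, where genes are not independent points. In the 487 and 476 cells without Pi16, Hhip or Aspn the signs of all 13 genes were kept, with Lamc3 at 0.62 and 0.43 and Clec3b at 0.23 and 0.15. The pattern was weaker there, and the r values of the libraries had a correlation of 0.41 over 5920 genes. An r of at least 0.3 in size was reached by 19 and 5 genes, against 69 and 40 over all Dcn ≥5 cells.

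Hedgehog genes were looked up after Ptch1 had been seen. Over Dcn ≥5 cells Hhip had r = 0.40 and 0.32, and Gli1 0.22 and 0.27. Gli2 lay at 0.00045 and -0.0067, and Gli3 at -0.11 and 0.017. Ptch1, Hhip and Gli1 are transcribed in response to hedgehog signals, whereas Gli2 and Gli3 are its transcription factors. The 8 letters marked in the Rbp4 promoter were in none of the windows RefSeq gave for 12 of the 18 genes that headed the fibroblast lists.

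Fibroblasts with less Dcn shared part of this pattern. With 1 to 4 Dcn UMIs the highest genes were Ptch1 (0.50 and 0.40), the binding protein gene Igfbp4 (0.41 and 0.38), Pltp, Igfbp7, Igfbp6, the gelatinase gene Mmp2, Cygb and Fndc1. In Dcn 0 cells they were Igfbp4 (0.34 and 0.36), Cygb (0.34 and 0.38), C4b, Cxcl12, Pltp, Mdk, Igfbp7 and Dpt. Pltp was the 1 gene among the 8 highest in all 3 fibroblast groups, and Npnt, Ces1d and Cdo1 were among the 5 lowest in all 3. Lamc3 stayed high at 0.58 and 0.53 with 1 to 4 Dcn UMIs, although it was found in 7.46% and 8.22% of those cells and so was too sparse to be listed. Across genes the libraries' r values had a correlation of 0.66 with 1 to 4 Dcn UMIs and 0.83 with 0.

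No such set was found in epithelial cells. Rbp4 averaged 0.380 and 0.409 UMIs per cell there, with at most 5, and such low counts limit the r that can be seen. The largest r was 0.13 over the 930 cells of library 1, for Bex2, and 0.37 over the 132 of library 2, and the smallest were -0.12, for Zfp36, an early response gene, and -0.34. Across 6091 genes the r values of the 2 libraries had a correlation of 0.025, and without the cells with Ptprc, Cdh5 or Pecam1 UMIs one of 0.066 over 6045 genes. Genes at the top of the list such as Scgb1a1 (0.13 and 0.29) and Cxcl15 (0.12 and 0.31) had larger values in library 2. There r between Rbp4 and log total UMIs was 0.24, and Ptprc cells were in the gate. Without the cells with Ptprc, Cdh5 or Pecam1 UMIs, the r with log total UMIs in library 2 was still 0.24. The largest r of a gene was then 0.39. None of the 13 genes from the Dcn ≥5 group had an r beyond 0.1 on the same side of 0 in both epithelial libraries. Several of them were too sparse there to show one. Lamc3 and Adh7 were each found in 0.108% and 0% of epithelial cells, and Lrat in 0.860% and 2.27%. Among the more common ones, Ces1d was in 94.4% and 78.0% (r = 0.0063 and 0.28) and Npnt in 26.7% and 65.9% (-0.032 and 0.071).

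**Figure D4:**
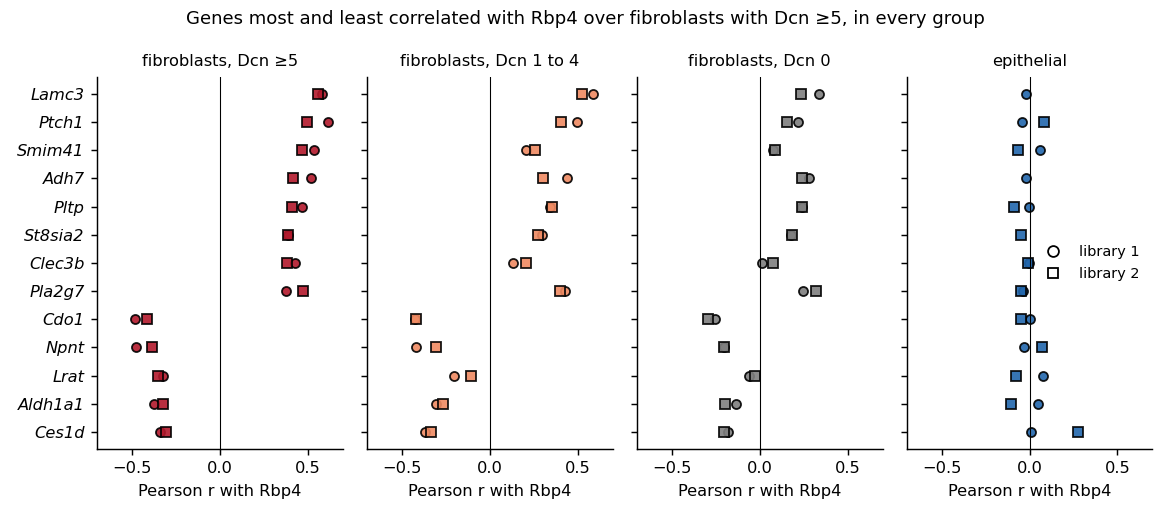
Pearson's r with Rbp4 over single cells (x axis) for the 8 highest and 5 lowest genes of Dcn ≥5 fibroblasts, shown in each of the 4 groups for library 1 (circles) and library 2 (squares). Lamc3 and Ptch1 lie between 0.50 and 0.61 in the first panel, and Cdo1 and Npnt between -0.48 and -0.39. In the epithelial panel, where several of these genes were almost undetected, the points scatter around 0.

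By the mean level in 6 classes of cells (the 4 groups, endothelial and immune) in each library, 12 points in all, the genes most like Rbp4 among 7782 were Fzd2, a Wnt receptor gene (r = 0.99 on log2(CPM + 1)), Smoc2 (0.98), Nrtn (0.98), Htra1 (0.97) and Dclk1 (0.97). The points share 2 libraries. Fzd2 stepped from 69.0 CPM in Dcn ≥5 cells to 38.3, 21.2 and 10.7 CPM in the 1 to 4, 0 and epithelial groups, and was at 0 in endothelial and immune cells, as means of the 2 libraries.

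The other retinoid genes were set beside Rbp4 over the same groups. UMIs were summed for each group and library, and edgeR's quasi-likelihood test was run on the 8 sums with the library as a block. Both groups of a contrast come from the same 2 libraries, so the adjusted p-values (Benjamini-Hochberg over all 13376 genes tested) measure how alike the difference was in these libraries. Of the 47 retinoid genes other than Rbp4, 30 passed the filter on low counts. Between Dcn ≥5 and Dcn 0 fibroblasts 3 of the 30 rose, 4 fell and 23 were not called. Of all genes tested, 3.95% were higher and 2.56% lower. The median log2 difference of the 30 was -0.032, and that of all genes was -0.034. Without the library as a block, 1 of the 7 calls was left, that of Adh7.

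Adh7 stood apart. It was at 141 and 28.9 CPM in Dcn ≥5 fibroblasts and at 1.22 and 0.714 CPM in Dcn 0 fibroblasts, a log2 difference of 6.20 ± 0.41 (SE, edgeR adjusted p = 0.0018). Adh1, another retinol-oxidising alcohol dehydrogenase, rose from 124 and 125 CPM to 297 and 263 CPM (1.21 ± 0.12, edgeR adjusted p = 0.0049). Cyp26b1, which degrades retinoic acid, was at 7.03 and 2.45 CPM against 0.673 and 0.556 CPM (2.88 ± 0.59, edgeR adjusted p = 0.042), and its call was lost when the epithelial cells with Ptprc, Cdh5 or Pecam1 UMIs were left out of the fit (edgeR adjusted p = 0.076).

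The 4 genes that fell were Ces1d, Pnpla2, Lipe and Fabp5. Of the 7 listed genes of esterification and ester hydrolysis, 3 fell and 4 were not called. Lpl, 1 of those not called, was found in 34.1% and 58.2% of Dcn ≥5 cells. It was found in 12.6% and 12.3% of Dcn 0 cells, which were shallower. Ces1d was at 109 and 188 CPM in Dcn ≥5 cells and at 564 and 526 CPM in Dcn 0 cells (-1.84 ± 0.30, edgeR adjusted p = 0.022). The lipase genes Pnpla2 and Lipe fell by 0.85 and 0.73 on the log2 scale. Fabp5, which encodes a fatty acid and retinoic acid binding protein, fell by 1.61 (edgeR adjusted p = 0.019), but not past the threshold without the 5% of cells with the most UMIs (edgeR adjusted p = 0.060). Sftpc and the alveolar type 2 markers moved in the same direction as Fabp5, summing to 444 and 140 CPM in Dcn ≥5 cells and 3565 and 710 CPM in Dcn 0 cells, and Fabp5 is abundant in epithelial cells of these libraries. Their part in its fall was not tested.

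Lrat, the storage enzyme, did not separate these groups past the threshold. Lrat was at 367 and 239 CPM in Dcn ≥5 cells and at 293 and 108 CPM in Dcn 0 cells (0.77 ± 0.21, edgeR adjusted p = 0.092). By value Lrat was thus the higher in the group with most Rbp4, in each library, while within that group the cells with most Rbp4 had less of it. Over single Dcn ≥5 cells, 17 retinoid genes were common enough to compare. Adh1 (0.25 and 0.25) and Adh7 had an r above 0.1 in both libraries, and the genes below -0.1 in both included Lrat, Lpl, Ces1d, Dhrs3 and Aldh1a1, against 3.32% of all genes compared above and 3.31% below. Cyp26b1 was higher in the group but had a negative r within it (-0.14 and -0.092), at a UMI in 3.54% and 1.97% of cells.

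Epithelial cells had a different retinoid make-up at an Rbp4 level like that of Dcn 0 fibroblasts. Of the 30 genes, 8 rose, 13 fell and 9 were not called, with or without the cells with Ptprc, Cdh5 or Pecam1 UMIs, where 25.9% of all genes were higher and 28.1% lower. The median log2 difference was -0.51, and that of all genes was -0.052. Lrat was at 1.04 and 1.71 CPM in epithelial cells, Aldh1a1 at 1.39 and 13.7 CPM and Adh1 at 0.812 and 0.571 CPM, each far below the fibroblast levels (edgeR adjusted p at most 3.7e-05). Of the receptor genes Rara, Rarg, Rxra and Rxrg fell and Rxrb did not pass the test (0.14 ± 0.14, edgeR adjusted p = 0.48). Crabp1 and Rxrg had 0 UMIs in epithelial cells of both libraries, and their levels in Dcn 0 fibroblasts were 6.35 and 2.99 CPM and 5.17 and 0.688 CPM.

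The genes that rose in epithelial cells were led by Lrp2, which encodes megalin, an endocytic receptor that takes up RBP4 and other ligands. Lrp2 was at 178 and 136 CPM in epithelial cells and at 1.81 and 0.476 CPM in Dcn 0 fibroblasts (7.76 ± 0.30, edgeR adjusted p = 1.1e-05). Fabp5 was at 2587 and 1009 CPM against 42.5 and 18.97 CPM (6.34 ± 0.28, edgeR adjusted p = 1.4e-05). Scarb1, Lpl, Pnpla2, Dhrs3, Rdh10 and Rdh11 also rose, but Rdh10 and Rdh11 were on the other side of 0 in library 2 alone, with log2 ratios of -0.12 and -0.20.

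Transthyretin and the receptor STRA6 were not detected. Ttr and Stra6 had 0 UMIs in all 4 groups of both libraries, which allows up to 0.555 and 0.334 CPM in Dcn ≥5 fibroblasts and up to 0.348 and 1.71 CPM in epithelial cells. Stra6l was at 0.571 CPM or less in every group. The remaining genes that did not pass the filter were Cubn, Rbp2, Rbp7, Crabp2, Rdh1, Rdh12, Rdh16, Dhrs9, Aldh1a3, Cyp26a1, Cyp26c1, Rarb, Bco1 and Bco2.

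**Figure D5:**
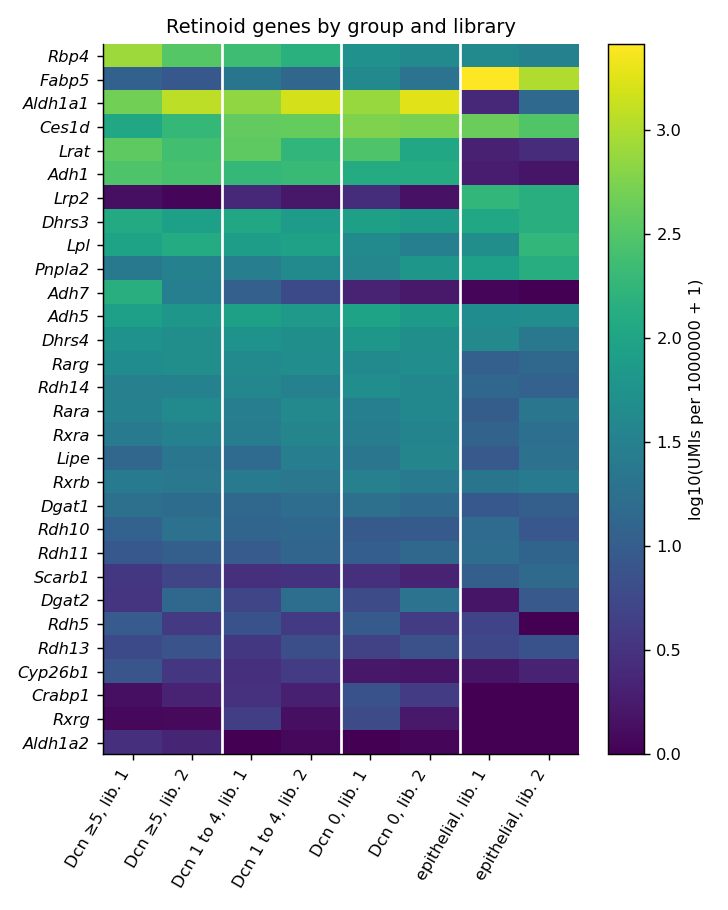
Level of Rbp4 and 29 of the 30 tested retinoid genes as log10(UMIs per 1000000 + 1), with a column for each group and library and the genes after Rbp4 ordered by their highest group mean. Rbp4 and Adh7 are brightest in the Dcn ≥5 columns, Lrat and Adh1 are high in all fibroblast columns and dark in epithelial cells, and Lrp2 and Fabp5 are the reverse.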

How the data were processed

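Single-cell libraries of UV-positive lung cells (10x Genomics 3' v3.1) were processed by the authors with Cell Ranger 5.0.1 against mm10, as the submitters' processing notes name them, and the deposited values are raw UMI counts for each gene and barcode of 2 libraries, without normalization. Totals were 48762735 and 93970185 UMIs.

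Here the study's filter was used (200 or more genes and no more than 10% mitochondrial UMIs in a cell), and the libraries were not integrated. Doublets were not called. The gates require 0 UMIs of other lineages in fibroblasts. CPM is a group's summed UMIs of a gene per 1000000 of its UMIs. Cells were thinned once to 2000 UMIs with a fixed seed. Shares have exact 95% Clopper-Pearson intervals and a count of 0 allows up to 3 UMIs. These cover counting error only.

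Sums over 4 groups and 2 libraries were tested with edgeR 4.0.16 in R 4.3.3 (glmQLFit, glmQLFTest, TMM, filterByExpr, two-sided, library as a block, Benjamini-Hochberg over all genes tested, threshold 0.05). The library pairs the groups, since groups of the same number are cells of the same library. Rbp4 and the 10 gate genes were left out of the tests. The libraries were made on separate occasions from an unstated number of mice. With the library as a block, p-values measure how alike the group differences were in these libraries. SE is the log2 difference divided by the square root of F. The fit and the correlation were tested on simulated data. Named correlates are the 8 highest by the lower, and the 5 lowest by the upper, of the libraries' r, among genes with a UMI in at least 10% of cells of each. Otherwise the text names Rbp4, gate genes, cell type markers, 48 retinoid genes and the 5 genes most alike in profile, with a level of at least 20 CPM in 1 class. Hedgehog genes, promoter letters and the limit of 6 Rbp4 UMIs were chosen after values were seen. The gene, the groups and the lists were chosen with earlier results of these data known. Promoters come from RefSeq on GRCm38.p6 and positions from GENCODE on GRCm38, the build named mm10. Python 3.11.15, numpy 2.4.6 and scipy 1.17.1 were used, and DESeq2 1.42.0 as an alternative. Some genes of these lists are not reported here.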

Additional observations from a re-analysis of the deposited data

How the results depend on the processing

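The Rbp4 level of the 4 groups moved by less than the S.D. between libraries under every alternative tried, with 3 exceptions. This is a loose limit in Dcn ≥5 fibroblasts, where the S.D. was 356 on a mean of 573 CPM. Leaving out 1 of 2 libraries can never pass it, so that setting says nothing about stability. In Dcn 0 fibroblasts (47.1 CPM) the mean over cells of UMIs per 1000000 in each cell gave 37.5 and thinning to 2000 UMIs gave 38.8 CPM, and a total without surfactant, Scgb1a1 and mitochondrial UMIs gave 50.001 CPM in epithelial cells (35.9 with all UMIs). With either library left out, the level ranged from 321 to 825 CPM in Dcn ≥5 fibroblasts, 145 to 223 with 1 to 4 Dcn UMIs, 42.6 to 51.7 with 0, and 30.8 to 40.9 in epithelial cells. Without the replicate block, 1 retinoid gene was called higher and 0 lower between Dcn ≥5 and Dcn 0 fibroblasts by edgeR (10 of 30 at an unadjusted p under 0.05; DESeq2 with the block called 4 and 4), and 7 were lower in epithelial cells against 13 with it. Over all genes, the fit without the block called 91 higher and 22 lower between the fibroblast groups, against 528 and 343 with it, and DESeq2 called 941 and 614. Rdh10 and Rdh11 turned to -0.12 and -0.20 in epithelial over Dcn 0 fibroblasts without library 1, and were 0.78 and 0.65 without library 2. With no residual degrees of freedom, leaving out a library gave log2 ratios and no test. Library 2 has 132 epithelial cells and library 1 has 44 endothelial cells, which limits their shares. Thinning as an alternative and the exclusion of Ptprc, Cdh5 and Pecam1 cells and of Pi16, Hhip and Aspn cells were chosen after seeing the data.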
